A study of Mus musculus with 11 samples.

Results

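The genes of polyamine synthesis and turnover were examined in the livers of mice that model hepatoblastoma, the main liver cancer of young children. The set was 10 mouse genes, chosen by name: Odc1, Srm, Sms, Amd1, Sat1, Smox, Paox, Oaz1, Oaz2 and Azin1. Their probes were found on the array by matching each probe's accession to a RefSeq symbol. A probe was found for 9 of the 10 genes and none for Amd1. These 9 genes had 18 of the 55681 probes measured, and all 18 were well above background on all 11 arrays.

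Polyamines (putrescine, spermidine and spermine) are small positively charged molecules that bind nucleic acids and that growing cells need. Odc1 makes putrescine from ornithine, and the aminopropyl groups that Srm and Sms add to build spermidine and spermine come from S-adenosylmethionine after Amd1 has decarboxylated it. Sat1 acetylates polyamines for export or breakdown, Paox oxidises the acetylated forms, and Smox oxidises spermine itself. Antizymes, encoded by Oaz1 and Oaz2, bind the Odc1 protein and send it to the proteasome, and their translation needs a frameshift that polyamines promote, so that much of this control lies outside the mRNA level measured here. Azin1, the antizyme inhibitor, binds antizymes in place of Odc1. Odc1 and Srm are textbook targets of the transcription factor Myc, which binds the sequence CACGTG, the E-box.

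All 11 mice were male, untreated, 22 to 40 days old and of a hybrid background that was largely B6SJL with some 129S6. Of these, 4 were wild type (WT), 3 carried the β-catenin form labelled β-catΔEx3, and 4 were labelled β-catΔEx3:Myc. β-catΔEx3 lacks the stretch that marks β-catenin, the carrier of the Wnt signal to the nucleus, for degradation. The promoter or Cre that drives either change is not given in the sources used here. The design text describes all livers as tumour-bearing, WT included, and counts the last group only as expressing c-Myc, so that it carries both changes rests on its labels. Whether tumour or the liver around it was sampled is not given either. Nor do the labels say that the samples of a group came from separate litters, and p-values measure the spread between these samples. Replicate numbers follow the order of deposit and only name a sample.

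The promoter windows of the set are shown because the comparison concerns targets of Myc and of mutant β-catenin. RefSeq windows of the 250 bases before a start site (build GRCm38.p6) covered 8 of the 10 genes, with 10 windows, and Srm and Azin1 are named only. Both strands were searched for 3 motifs: the E-box CACGTG, the core CTTTGA of the Tcf motif through which β-catenin acts, and the GC box GGGCGG. The window of Odc1 lies on the plus strand at chr12:17544623-17544872 and is 80.0% G and C. The upstream window of Sms lies on the minus strand at chrX:157492288-157492537. Capitals mark GC boxes of either strand in Odc1 and the E-box in Sms.
Odc1: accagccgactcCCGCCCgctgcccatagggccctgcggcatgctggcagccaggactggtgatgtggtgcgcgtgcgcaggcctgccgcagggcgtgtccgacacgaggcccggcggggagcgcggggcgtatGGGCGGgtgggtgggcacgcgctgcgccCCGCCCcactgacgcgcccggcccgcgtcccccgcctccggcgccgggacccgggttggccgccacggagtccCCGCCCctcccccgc
Sms: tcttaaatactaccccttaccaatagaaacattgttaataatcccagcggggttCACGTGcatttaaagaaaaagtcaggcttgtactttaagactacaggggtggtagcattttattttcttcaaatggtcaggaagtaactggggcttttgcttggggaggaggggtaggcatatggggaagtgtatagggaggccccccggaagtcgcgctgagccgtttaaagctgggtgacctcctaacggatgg
The window of Odc1 held 4 GC boxes, at 238, 116, 88 and 15 bases before the start, and no E-box; the Myc sites described for Odc1 lie in its first intron, which was not searched. The E-box of Sms, 196 bases before its start, was the only E-box in the 10 windows, against 6.02% of the 32851 promoter windows of the mouse. CTTTGA was in 0 of the 10 windows and in 13.8% of all windows, and the GC box was in 8 of the 10 and in 32.7% of all. The windows of Paox (chr7:140125407-140125656 and chr7:140125435-140125684) overlap, so 1 GC box is counted in both. These matches are descriptions of the letters in the windows and not of binding.

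Values are log2 of the processed signal over the 75th percentile (upper quartile) of the same array, so that a probe at 0 equals the upper quartile. Values of different probes are not comparable as amounts of mRNA. The upper quartile lay between 192.6 and 303.6 signal units, between 47.8% and 52.4% of probes passed as well above background, and saturated spots were absent (0 on every array). Fold changes are log2 differences (log2FC) ± standard error from a limma fit of the 3 groups over all 22282 items tested (genes, or probes of unnamed accessions). Adjusted p-values are limma's, with Benjamini-Hochberg adjustment over those items, and a gene was called when its adjusted p was under 0.05. The arrays lay on 4 slides: WT replicates 1 to 3 on slide 1, replicates 1 and 2 of both mutant groups on slide 2, β-catΔEx3:Myc replicate 3 alone on slide 3, and 1 array of each group on slide 4. A fit with slide as a block gives the values named blocked below, and in it the only WT array that shares a slide with mutants is WT replicate 4. Both comparisons with WT share the same 4 WT arrays.

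Odc1, the first and rate-limiting enzyme of polyamine synthesis, was higher in both mutant groups than in WT livers, about 2-fold in β-catΔEx3. Its log2 signal over the upper quartile was 3.71, 3.58, 3.58 and 3.76 on the WT arrays, 4.64, 4.84 and 4.62 on the β-catΔEx3 arrays and 4.54, 4.39, 4.06 and 4.92 on the β-catΔEx3:Myc arrays. The lowest mutant array stood above the highest WT array, while the mutant groups overlapped, with β-catΔEx3:Myc holding both the lowest and the highest mutant value. Odc1 rose 2.05-fold in β-catΔEx3 (log2FC 1.04 ± 0.19, adjusted p = 0.00227) and 1.77-fold in β-catΔEx3:Myc (0.82 ± 0.18, adjusted p = 0.00413). Within slide 4 the differences were 0.85 and 1.16. The blocked values were of like size but not called, at 1.04 ± 0.27 (adjusted p = 0.0572) and 0.97 ± 0.27 (adjusted p = 0.067).

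Srm, spermidine synthase, showed the largest fold changes of the 9 genes. Its log2 signal was 3.25, 3.45, 3.86 and 3.2 in WT, 5.16, 4.8 and 4.76 in β-catΔEx3, and 4.98, 4.72, 4.67 and 5.09 in β-catΔEx3:Myc. All 7 mutant arrays lay above all 4 WT arrays, by more than the spread within any group. Srm rose 2.76-fold in β-catΔEx3 (log2FC 1.47 ± 0.20, adjusted p = 0.000468) and 2.68-fold in β-catΔEx3:Myc (1.42 ± 0.18, adjusted p = 0.000246). Both calls were kept with the slide as a block, at 1.71 ± 0.35 (adjusted p = 0.0302) and 1.74 ± 0.35 (adjusted p = 0.0296), and the slide 4 differences were 1.56 and 1.89.

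**Figure D1:**
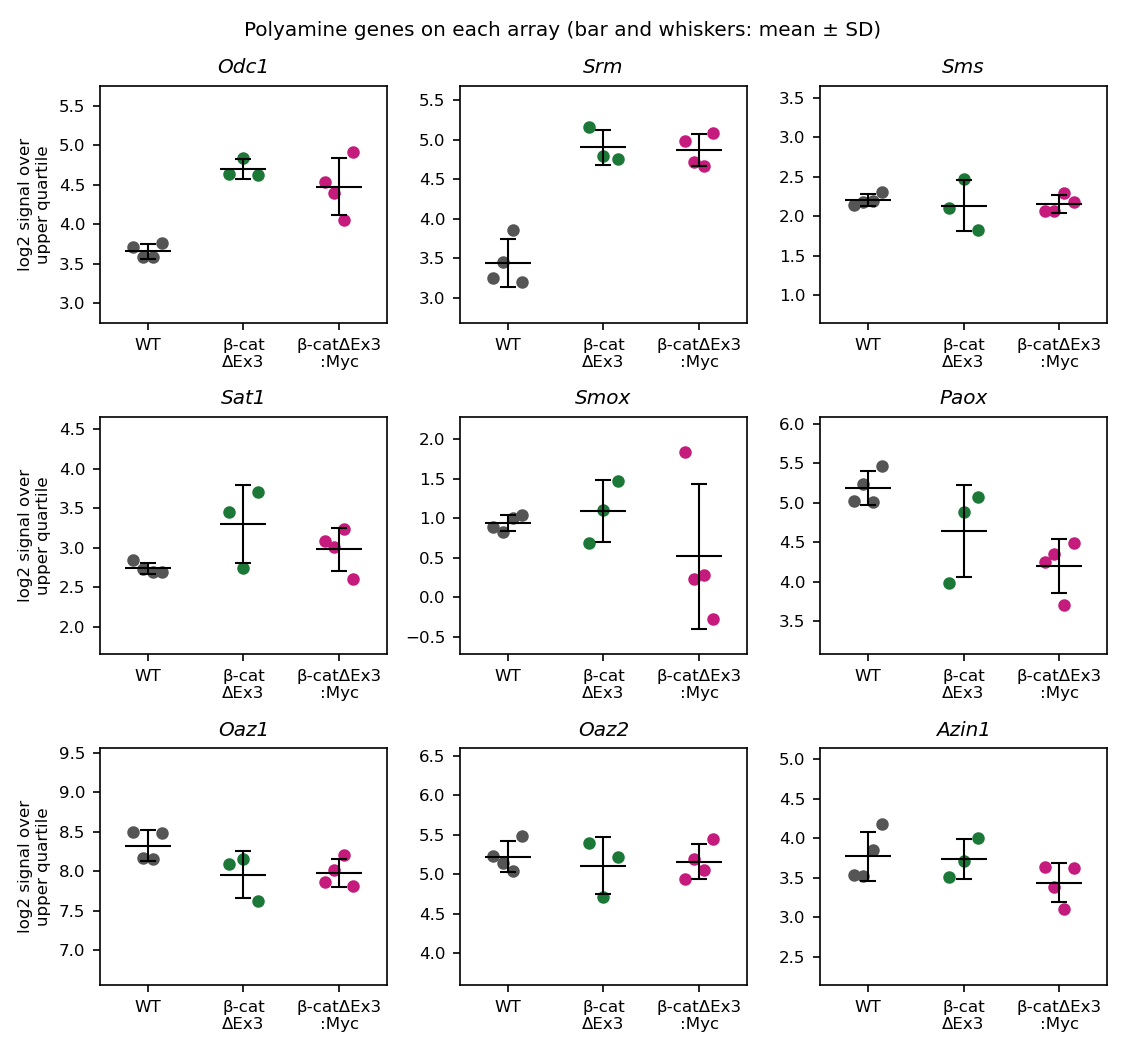
Log2 signal over the upper quartile of each array for the 9 measured genes (vertical axes, 1 panel a gene) in WT, β-catΔEx3 and β-catΔEx3:Myc livers. Points are arrays, bars are group means and whiskers are SD (n = 4, 3 and 4); every vertical axis spans the same log2 range. All mutant arrays lie above WT for Odc1 and Srm, and all β-catΔEx3:Myc arrays lie below WT for Paox.

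Myc itself was set beside these enzymes on the same arrays. Its log2 signal was 2.3, -0.12, 0.22 and -0.52 in WT, 2.44, 1.39 and 2.08 in β-catΔEx3, and 4.65, 3.13, 2.55 and 4.98 in β-catΔEx3:Myc. WT replicate 1 had a Myc signal within the range of the β-catΔEx3 arrays, while its Odc1 (3.71) and Srm (3.25) lay within the range of the other WT arrays. Myc rose in β-catΔEx3:Myc against WT (log2FC 3.36 ± 0.68, adjusted p = 0.00286; blocked 5.19, adjusted p = 0.0365; 5.50 within slide 4), and without WT replicate 1 the log2FC was 3.97. Against β-catΔEx3 it was 3.62-fold higher with no overlap, a difference that was not called (1.86 ± 0.73, adjusted p = 0.40). In β-catΔEx3 against WT it was not called either (1.50 ± 0.73, adjusted p = 0.132), except without WT replicate 1 (2.11, adjusted p = 0.0254). Whether the Myc probe reports the introduced Myc cannot be told from the files. Ctnnb1, the β-catenin gene, had log2FC of -0.17 ± 0.15 (adjusted p = 0.423) and -0.18 ± 0.14 (adjusted p = 0.347) against WT, and its probe cannot be placed relative to exon 3.

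Odc1 and Srm were also compared between the mutant groups. For Odc1 the log2FC of β-catΔEx3:Myc against β-catΔEx3 was -0.22 ± 0.19, with a 95% interval from -0.64 to 0.21 (adjusted p = 0.789). For Srm it was -0.04 ± 0.20, with an interval from -0.48 to 0.40 (adjusted p = 0.972). The slides differed in sign, at -0.27 on slide 2 and 0.31 on slide 4 for Odc1, and at -0.13 and 0.33 for Srm. The intervals leave room for a difference of either sign, but both upper ends lie below the rise of each gene in β-catΔEx3 over WT.

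**Figure D2:**
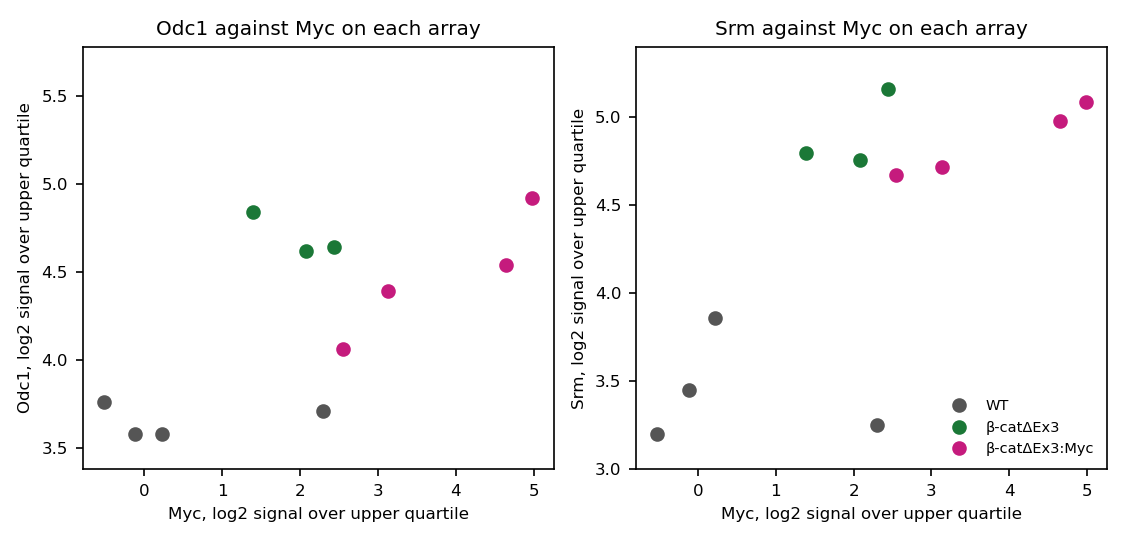
Log2 signal of Odc1 (left) and Srm (right) against that of Myc on each of the 11 arrays, both axes in log2 signal over the upper quartile, with 1 point an array. The β-catΔEx3:Myc arrays reach a Myc value of 4.98 while their Srm values stay near the range of the β-catΔEx3 arrays and their Odc1 values run from 4.06, nearer to WT, to 4.92. WT replicate 1 stands alone at a Myc value of 2.3 with low Odc1 and Srm.

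Sms, spermine synthase, was not called by its brightest probe. That probe gave 2.14, 2.18, 2.2 and 2.31 in WT, 2.1, 2.47 and 1.83 in β-catΔEx3, and 2.07, 2.07, 2.3 and 2.18 in β-catΔEx3:Myc. The groups overlapped, and the log2FC against WT were -0.07 ± 0.16 (adjusted p = 0.755) and -0.06 ± 0.15 (adjusted p = 0.795). The next brightest probe of Sms differed: its signal was -0.67, -0.63, -0.87 and -0.28 in WT and -1.86, -1.12 and -1.8 in β-catΔEx3, without overlap. On its own that probe was called lower in β-catΔEx3 (-0.98 ± 0.30, adjusted p = 0.0265) and not in β-catΔEx3:Myc (-0.69 ± 0.28, adjusted p = 0.0696), and the dimmest probe was not called (-0.71 ± 0.38, adjusted p = 0.174, in β-catΔEx3). A pseudogene, Sms-ps, is annotated, and which transcripts each probe reads was not determined.

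Amd1, which supplies the aminopropyl donor, had no probe under its own symbol. The nearest measure was a probe of Amd2, a near-identical copy for which the RefSeq table lists Amd1 among the synonyms, so this value may not part the copies. Its signal was 4.11, 4.02, 4.09 and 4.05 in WT, 3.5, 4.24 and 3.89 in β-catΔEx3, and 4.22, 3.12, 3.21 and 4.17 in β-catΔEx3:Myc. WT arrays lay close together and the mutant arrays spread to both sides of them. Neither log2FC against WT was called, at -0.19 ± 0.29 (adjusted p = 0.653) and -0.39 ± 0.27 (adjusted p = 0.282).

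Of the 3 catabolic enzymes, Paox alone was called, and it was lower. Paox, the peroxisomal oxidase of acetylated polyamines, had log2 signals of 5.02, 5.24, 5.01 and 5.47 in WT, 3.98, 4.88 and 5.07 in β-catΔEx3, and 4.25, 4.35, 3.7 and 4.49 in β-catΔEx3:Myc. All β-catΔEx3:Myc arrays lay below all WT arrays, whereas β-catΔEx3 replicate 3 lay within the WT range. Paox fell 1.99-fold in β-catΔEx3:Myc (log2FC -0.99 ± 0.26, adjusted p = 0.0109), with -0.99 within slide 4, but the blocked value was not called (-0.84 ± 0.39, adjusted p = 0.214). In β-catΔEx3 the log2FC was -0.54 ± 0.28 (adjusted p = 0.152). The difference between the mutant groups was not called (-0.45 ± 0.28, adjusted p = 0.658), so the change was not shown to differ between them.

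Sat1, the acetyltransferase whose product is the substrate of Paox, was not called. Its signal was 2.84, 2.73, 2.69 and 2.69 in WT, 3.45, 2.75 and 3.71 in β-catΔEx3, and 3.08, 3.01, 3.24 and 2.6 in β-catΔEx3:Myc. In β-catΔEx3, replicates 1 and 3 stood above every WT array and replicate 2 lay among them. The log2FC in β-catΔEx3 was 0.56 ± 0.23 (adjusted p = 0.0789), and without β-catΔEx3 replicate 2 it was 0.84 and called (adjusted p = 0.00918). In β-catΔEx3:Myc it was 0.24 ± 0.21 (adjusted p = 0.384).

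Smox, the spermine oxidase, had the widest spread within a group of the set (SD 0.92 in β-catΔEx3:Myc). It gave 0.89, 0.82, 1.0 and 1.04 in WT, 0.69, 1.1 and 1.47 in β-catΔEx3, and 1.84, 0.23, 0.28 and -0.28 in β-catΔEx3:Myc. In the last group replicates 2 to 4 lay below every WT array and replicate 1 above all of them. The log2FC was 0.15 ± 0.41 in β-catΔEx3 (adjusted p = 0.804) and -0.42 ± 0.38 in β-catΔEx3:Myc (adjusted p = 0.406). Without β-catΔEx3:Myc replicate 1 the latter was -0.86 and called (adjusted p = 0.0117).

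The antizymes and the antizyme inhibitor, the regulators of the Odc1 protein, were not called. Oaz1, the main antizyme of most tissues, had log2 signals of 8.5, 8.17, 8.15 and 8.48 in WT, 8.09, 8.16 and 7.62 in β-catΔEx3, and 7.87, 8.01, 8.21 and 7.81 in β-catΔEx3:Myc. Most mutant arrays lay below WT, but each mutant group had 1 array within its range. The log2FC were -0.37 ± 0.18 (adjusted p = 0.134) and -0.35 ± 0.17 (adjusted p = 0.116). This result depended on scaling: Oaz1 was called lower in both groups with quantile normalization (-0.73, adjusted p = 0.00247, and -0.77, adjusted p = 0.000928). It was also called with the percentile taken over probes detected on all arrays (-0.56 and -0.49) and with the authors' deposited matrix (-0.60 and -0.67). That percentile moved the median log2FC of all items from 0.101 to -0.084 in β-catΔEx3 and from 0.128 to -0.012 in β-catΔEx3:Myc. A processed pseudogene, Oaz1-ps, could share its signal.

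Oaz2, a second antizyme, gave 5.23, 5.14, 5.04 and 5.49 in WT, 5.4, 4.71 and 5.22 in β-catΔEx3, and 4.94, 5.2, 5.06 and 5.45 in β-catΔEx3:Myc. The groups overlapped, with log2FC of -0.11 ± 0.20 (adjusted p = 0.692) and -0.06 ± 0.19 (adjusted p = 0.813). Its dimmer probe had the other sign, from -0.35 to 0.25 in WT and from 0.27 to 0.53 in β-catΔEx3:Myc, and on its own was called higher there (0.54 ± 0.17, adjusted p = 0.0272). The direction of Oaz2 therefore depended on the probe.

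Azin1 gave 3.54, 3.53, 3.85 and 4.18 in WT, 3.51, 3.71 and 4.01 in β-catΔEx3, and 3.64, 3.39, 3.11 and 3.62 in β-catΔEx3:Myc. All groups overlapped, and the log2FC were -0.04 ± 0.21 (adjusted p = 0.914) and -0.34 ± 0.20 (adjusted p = 0.197). Its 2 other probes gave 0.25 and 0.01 in β-catΔEx3 and -0.06 and -0.21 in β-catΔEx3:Myc.

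The probes of Odc1 and of Srm were alike, while those of Sms and of Oaz2 were not. All 3 probes of Odc1 were called higher in both groups, the other 2 with log2FC of 0.97 and 0.72 in β-catΔEx3 and of 0.84 and 0.55 in β-catΔEx3:Myc. The second probe of Srm gave 1.37 and 1.40, both called. Both Smox probes gave like values, with 0.25 and -0.44 for the dimmer one.

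**Figure D3:**
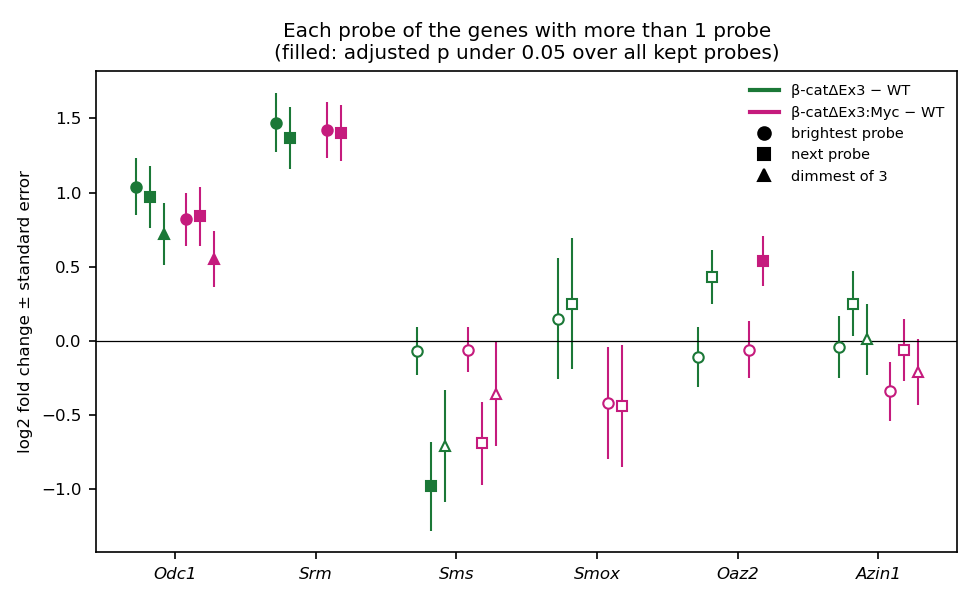
Log2 fold change ± standard error (vertical axis) against WT for each probe of the 6 genes with more than 1 probe, β-catΔEx3 in green and β-catΔEx3:Myc in magenta; circles are the brightest probe, squares the next and triangles the dimmest of 3, and filled symbols were called. All probes of Odc1 and Srm lie above 0, while the probes of Sms and Oaz2 part from each other.

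Over the set, 2 of the 9 measured genes were called in β-catΔEx3 against WT, Odc1 and Srm, both higher. In that comparison 37.2% of all items were called, 21.8% higher and 15.4% lower, so that 2 of 9 is no larger a share than the background. In β-catΔEx3:Myc against WT, 3 of 9 were called, Odc1 and Srm higher and Paox lower, where 42.2% of all items were called, 24.8% higher and 17.3% lower. The same genes were those without overlap between the groups, beside 43.7% and 42.2% of all items. Between the mutant groups limma called 0 of 9, and 0 of 9 had an unadjusted p under 0.05, where 0.337% of items were called and 10.3% had such a p. At an unadjusted p under 0.05, Sat1 joined Odc1 and Srm in β-catΔEx3 (3 of 9, beside 46.8% of all items), and 3 of 9 passed in β-catΔEx3:Myc (beside 50.2%). The median log2FC of the 9 genes was -0.04, -0.06 and -0.22 in the 3 comparisons, against 0.10, 0.13 and 0.00 over all items.

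**Figure D4:**
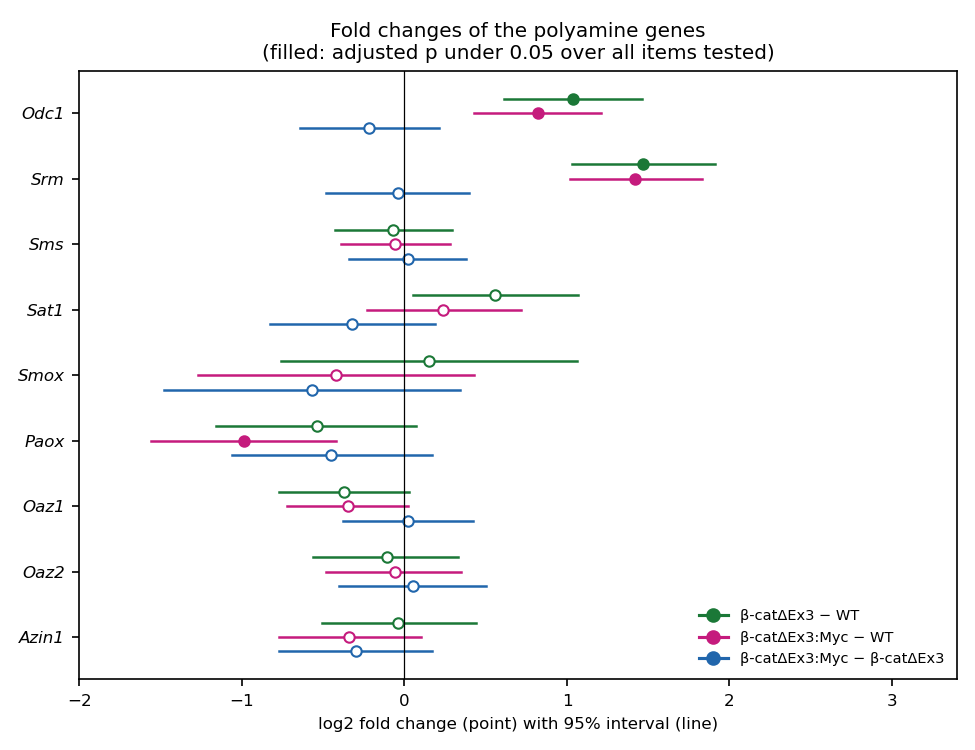
Log2 fold change (horizontal axis, points) with its 95% interval (lines) of the 9 measured genes in the 3 comparisons; filled points were called at an adjusted p under 0.05. Odc1 and Srm stand above 0 in both comparisons with WT, Paox is called below 0 in β-catΔEx3:Myc against WT, and every interval of β-catΔEx3:Myc against β-catΔEx3 (blue) includes 0.

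The intervals between the mutant groups show what these arrays could tell apart. That of Sat1 was centred on -0.32 ± 0.23 (adjusted p = 0.723) and that of Smox on -0.57 ± 0.41 (adjusted p = 0.723). The slides differed for both genes, at -1.11 and -1.75 on slide 4 and at -0.05 and 0.14 on slide 2. Sms, Oaz1 and Oaz2 had differences of 0.02, 0.02 and 0.05, with intervals from -0.34 to 0.38, from -0.38 to 0.42 and from -0.40 to 0.50. Azin1 had -0.30 ± 0.21 (adjusted p = 0.71), with an interval from -0.77 to 0.17.

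The wider pathway was read from 4 lists, whose counts stand beside 21.8% of all items called higher and 15.4% lower in β-catΔEx3 against WT, and 24.8% and 17.3% in β-catΔEx3:Myc against WT. The median log2FC of all items was 0.10 and 0.13. Of the related enzymes and antizymes, 8 of 10 were tested, and 3 rose and 0 fell in β-catΔEx3 (median log2FC 0.61, with 21.8% of all items called higher), while 2 rose and 0 fell in β-catΔEx3:Myc (median 0.50, with 24.8%). Oat, the mitochondrial aminotransferase that interconverts ornithine and glutamate semialdehyde, had log2 signals of 4.54, 4.15, 4.72 and 5.17 in WT against 8.0 to 9.32 over the 7 mutant arrays. It rose 18.2-fold in β-catΔEx3 (log2FC 4.18 ± 0.34, adjusted p = 2.29e-05) and 19.9-fold in β-catΔEx3:Myc (4.31 ± 0.31, adjusted p = 8.58e-06). Its blocked log2FC were smaller, 3.23 and 3.25 (adjusted p = 0.0115 for each), and within slide 4 the differences were 2.83 and 3.64. Arg2, an arginase that makes ornithine, had log2 signals of -5.62, -6.3, -2.89 and -4.57 in WT, of which replicate 3 alone was above background. It had -0.23, -1.53 and -0.72 in β-catΔEx3 and -0.46, -3.07, -2.28 and -5.88 in β-catΔEx3:Myc. It was called higher in β-catΔEx3 (adjusted p = 0.0181; blocked adjusted p = 0.466) and not in β-catΔEx3:Myc (adjusted p = 0.166), and with most WT arrays at background the size of the change is not given. Azin2, a second antizyme inhibitor with a dim probe, rose in both (1.41 ± 0.37, adjusted p = 0.014, and 1.17 ± 0.35, adjusted p = 0.0198), and neither call was kept with the slide as a block (adjusted p = 0.0856 and 0.13). The call of Arg2 was lost without β-catΔEx3 replicate 1 (adjusted p = 0.0645) and that of Azin2 in β-catΔEx3 without its replicate 3 (1.27, adjusted p = 0.0514). In β-catΔEx3:Myc the call of Azin2 was lost without WT replicate 4 (0.93) or β-catΔEx3:Myc replicates 2 (0.98) or 3 (1.08).

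Of the 8 genes of methionine supply and methylthioadenosine salvage, 4 rose and 0 fell in each comparison with WT (medians 0.56 and 0.54), where 21.8% and 24.8% of all items were called higher. Mat2a, the S-adenosylmethionine synthetase of dividing and extrahepatic cells, had log2 signals of 5.45, 5.44, 5.55 and 5.26 in WT, 7.87, 7.76 and 7.76 in β-catΔEx3 and 8.04, 7.78, 7.96 and 7.92 in β-catΔEx3:Myc. No array of WT came near a mutant array, and each group was tight. Mat2a rose 5.19-fold (log2FC 2.38 ± 0.13, adjusted p = 2.79e-06) and 5.66-fold (2.50 ± 0.12, adjusted p = 8.52e-07), and stayed called with the slide as a block. Mat1a, the synthetase of mature hepatocytes, rose in β-catΔEx3:Myc (1.03 ± 0.26, adjusted p = 0.00872; blocked 0.68, adjusted p = 0.409) and had 0.57 in β-catΔEx3 (adjusted p = 0.134). Enoph1, of the salvage route that recovers methionine from the by-product of Srm and Sms, rose in both (0.67 ± 0.21 and 0.66 ± 0.20; blocked adjusted p = 0.128 and 0.0954). Mri1, of the same route, rose in β-catΔEx3 (0.71 ± 0.22, adjusted p = 0.0254, and blocked 0.39, adjusted p = 0.377). In β-catΔEx3:Myc it had 0.52 ± 0.20 and was not called (adjusted p = 0.0575). Mat2b, the regulatory partner of Mat2a, was named after its values were seen and completes the counts, with 0.54 and 0.55 (blocked adjusted p = 0.574 and 0.628). Each of the smaller of these calls was lost when different single arrays were left out, with the sign kept. That of Mri1 was lost without WT replicate 2 (0.63) or β-catΔEx3 replicates 1 (0.57) or 2 (0.70). In β-catΔEx3 that of Enoph1 was lost without WT replicates 2, 3 or 4 (0.67, 0.70 and 0.57) or β-catΔEx3 replicates 1 or 2 (0.66 and 0.52), and that of Mat2b without WT replicates 1, 2 or 3 (0.56, 0.47 and 0.47) or β-catΔEx3 replicates 1 or 3 (0.51 and 0.48). In β-catΔEx3:Myc that of Enoph1 was lost without WT replicate 4 (0.56) or β-catΔEx3:Myc replicate 1 (0.54), and that of Mat2b without WT replicates 2 or 3 (0.48 each) or β-catΔEx3:Myc replicate 3 (0.51).

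Spermidine is also the donor for hypusine, a modified lysine found in the translation factor Eif5a. Of the 4 genes of this branch, 2 rose and 0 fell in each comparison with WT (medians 0.66 and 0.61), beside the same 21.8% and 24.8%. Dhps, the enzyme that transfers the spermidine part, had log2 signals of 2.51 to 2.94 in WT, 3.71 to 3.9 in β-catΔEx3 and 3.32 to 3.85 in β-catΔEx3:Myc. Eif5a had 4.94 to 5.17, 5.72 to 6.18 and 5.49 to 6.16. For both genes every mutant array lay above every WT array. Of all items, 43.7% in β-catΔEx3 and 42.2% in β-catΔEx3:Myc did not overlap with WT either. Dhps rose with log2FC of 0.98 ± 0.17 and 0.82 ± 0.16 (blocked 0.65 and 0.49, adjusted p = 0.164 and 0.266). Eif5a rose with 0.86 ± 0.19 and 0.78 ± 0.17 (blocked 0.75 and 0.58, adjusted p = 0.0752 and 0.138).

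Of the transport genes reported, 8 of 10 were tested; 2 rose and 1 fell in β-catΔEx3, and 2 rose and 2 fell in β-catΔEx3:Myc (medians 0.12 and 0.09), shares close to the 37.2% and 42.2% of all items called either way. Slc22a3, an organic cation transporter that can carry polyamines, was above background on 2 of 4 WT arrays and had -4.69 to -3.37 in WT, 0.84 to 1.36 in β-catΔEx3 and 1.06 to 1.44 in β-catΔEx3:Myc. It was called higher in both, also with the slide as a block (adjusted p = 0.0075 and 0.00695). With WT replicates 1 and 3 at background the size of the change rests on the other WT arrays; within slide 4, where the WT array was above background, the differences were 4.29 and 4.87. Slc3a2, the shared heavy chain of several amino acid exchangers, rose in both (2.12 ± 0.48, adjusted p = 0.00682, and 1.22 ± 0.45, adjusted p = 0.049; blocked adjusted p = 0.101 and 0.352). Gpc1, a heparan sulfate proteoglycan linked to polyamine uptake, fell in β-catΔEx3:Myc (-1.42 ± 0.34, adjusted p = 0.00713, and blocked -0.90, adjusted p = 0.368). In β-catΔEx3 it had -0.94 ± 0.37 and was not called (adjusted p = 0.0682). The difference of Gpc1 between the mutant groups was not called either (-0.48, adjusted p = 0.741). Atp13a2, a lysosomal polyamine exporter, completes the counts with -0.53 and -0.45 (blocked adjusted p = 0.163 and 0.233). In β-catΔEx3 the call of Atp13a2 was lost without WT replicates 1 (-0.47) or 2 (-0.50) or β-catΔEx3 replicate 3 (-0.42). In β-catΔEx3:Myc the call of Atp13a2 was lost without WT replicates 1 (-0.39) or 2 (-0.42) or β-catΔEx3:Myc replicates 2 (-0.46) or 3 (-0.41). That of Slc3a2 was lost without each of the 4 WT arrays in turn (1.09 to 1.29), or β-catΔEx3 replicate 1 (1.22), or any of β-catΔEx3:Myc replicates 1 to 3 (1.11, 1.29 and 0.91). No gene of the 4 lists was called between the mutant groups by limma, where 1 of the 28 tested had an unadjusted p under 0.05, beside 10.3% of all items.

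**Figure D5:**
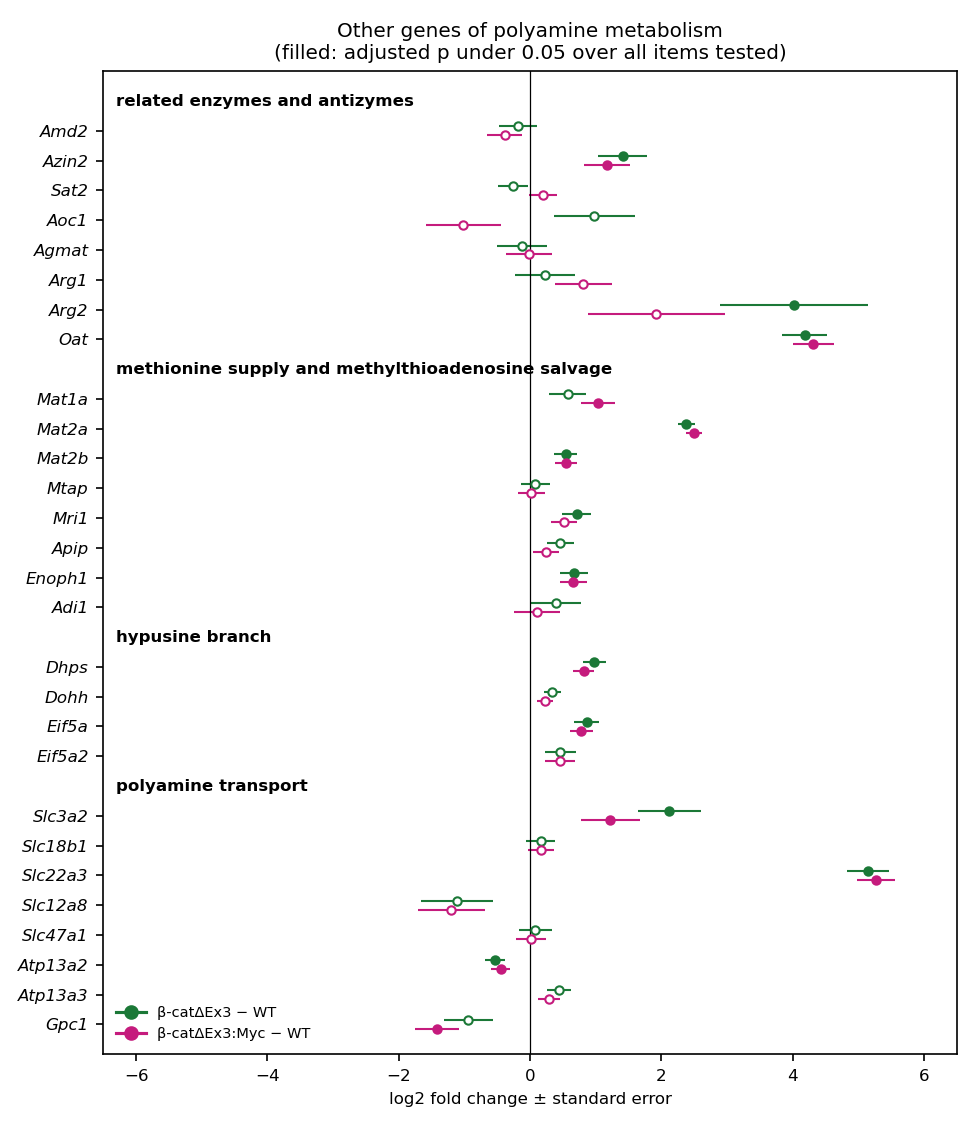
Log2 fold change ± standard error (horizontal axis) against WT for the 28 tested genes of the 4 pathway lists, β-catΔEx3 in green and β-catΔEx3:Myc in magenta; filled points were called. Oat, Mat2a and Slc22a3 lie far above 0 in both comparisons, the WT level behind Slc22a3 and Arg2 being at background on 2 and 3 of 4 arrays, and Gpc1 and Atp13a2 are the called genes below 0.

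The profiles most like those of Odc1 and Srm were sought among the named genes, by the root mean square difference of log2 values over the 11 arrays after each gene was centred on its own mean. Nearest to Odc1 were Snupn (0.153), Ttc19 (0.162) and Rbis (0.162). Nearest to Srm were Tomm5 (0.158), Ears2 (0.198) and Fam185a (0.198). Odc1 and Srm differed from each other by 0.366, and 1531 named genes were closer to Odc1 and 328 closer to Srm than that. All 6 of these neighbours were called higher in both comparisons with WT, from 0.73 for Snupn in β-catΔEx3:Myc to 1.56 for Tomm5 in β-catΔEx3. These calls follow from choosing the genes by likeness over the same 11 arrays and are not a separate result.

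Markers of the cells a piece of liver can hold moved with the same groups. Summed levels are multiples of the upper quartile and are carried by the brightest probes, so call counts are given too, beside 15.4% and 17.3% of all items called lower in β-catΔEx3 and β-catΔEx3:Myc against WT. Hepatocyte markers were high on all arrays, with sums of 4910 to 6030 over 7 measured markers in WT, 2740 to 3270 in β-catΔEx3 and 2500 to 4070 in β-catΔEx3:Myc. Of the 7, 4 fell in β-catΔEx3, and 3 fell and 1, Cps1, rose in β-catΔEx3:Myc (0.99, adjusted p = 0.0476), while Alb and Apob were not called in either. The rise of Cps1 was not called with the slide as a block (0.68, adjusted p = 0.449). It was called in 3 of the 11 fits that left out 1 array. Macrophage markers summed to 263 to 409 in WT, 22.6 to 65.6 in β-catΔEx3 and 19.6 to 72.8 in β-catΔEx3:Myc, and 9 of 9 fell in both comparisons. Endothelial markers summed to 126 to 147, 60.7 to 78.7 and 31.2 to 49.4, with 4 and 6 of 8 called lower. Stellate and fibroblast markers summed to 102 to 185, 91.1 to 94.1 and 34 to 67, with 2 and 6 of 8 called lower. With the slide as a block most of these marker calls were lost. No macrophage marker stayed called (lowest adjusted p = 0.0647, Marco in β-catΔEx3). The calls kept were those of Apoa1 and Reln in both comparisons, and of Clec4g, Cdh5, Tek and Dcn in β-catΔEx3:Myc. In β-catΔEx3 the blocked value of Dcn was -0.10 (adjusted p = 0.817).

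Blood cell markers varied more. Erythroid markers (8 measured) summed to 606 to 1300 in WT, 54 to 189 in β-catΔEx3 and 44.9 to 1030 in β-catΔEx3:Myc. Epb42 and Rhag were not above background on any β-catΔEx3 array. Of the 6 tested, 1 rose and 3 fell in β-catΔEx3, and 2 rose and 1 fell in β-catΔEx3:Myc. Tfrc rose in both (2.3, adjusted p = 0.000117, and 2.41, adjusted p = 3.84e-05), also with the slide as a block (adjusted p = 0.0273 and 0.0197). Klf1 was called higher in β-catΔEx3:Myc (2.04, adjusted p = 0.0136), with overlapping groups. The blocked value of Klf1 was 0.07 (adjusted p = 0.956) and its slide 4 difference -0.09, so its rise depended on the slides. Alas2 fell in both (-2.84, adjusted p = 0.0188, and -2.2, adjusted p = 0.0353), and neither call was kept with the slide as a block (adjusted p = 0.0521 and 0.0885). Lymphocyte markers summed to 52.3 to 71.2, 19.5 to 50.1 and 24.1 to 51.4, and Cd79a was not above background on any array of the 3 groups. Of the 7 lymphocyte markers tested, 0 rose and 4 fell in β-catΔEx3, and 1 rose and 4 fell in β-catΔEx3:Myc. With the slide as a block only Cd4, which fell, stayed called (adjusted p = 0.0355 and 0.0346). Neutrophil sums were 266 to 283, 245 to 283 and 284 to 341, most of it from Csf3r. The median log2FC of the 8 neutrophil markers tested was -1.62 and 1.63 against WT. Of these, 1 and 2 were called higher, beside 21.8% and 24.8% of all items, and 0 lower. The 1 called higher in β-catΔEx3 was Elane (1.85, adjusted p = 0.00208), a call not kept with the slide as a block (adjusted p = 0.128). The 2 called in β-catΔEx3:Myc, Mpo and Ngp, were kept (blocked adjusted p = 0.0153 and 0.0453). Between the mutants the median was 3.41, with 0 called by limma without a block but 7 of 8 at an unadjusted p under 0.05 (10.3% of all items). Of these 7, Elane alone was lower in β-catΔEx3:Myc (-1.07, adjusted p = 0.251). The others were higher, among them Mpo (4.52, adjusted p = 0.0595) and Ngp (4.27, adjusted p = 0.0609). The limma fit with the slide as a block called Mpo (5.36, adjusted p = 0.00339), Ngp (5.03, adjusted p = 0.0117), Camp (4.50, adjusted p = 0.0323) and S100a9 (4.12, adjusted p = 0.0431). S100a8 (4.21, adjusted p = 0.0572), Ltf, Elane and Csf3r were not called in it. Ngp was not above background on any β-catΔEx3 array, so the size of its difference is uncertain. Biliary sums were 2.17 to 5.02, 2.86 to 3.21 and 1.46 to 1.73, and proliferation sums 27.4 to 51.5, 30.1 to 75.2 and 28.2 to 78.2. Of 6 biliary markers tested, 1 rose and 0 fell in β-catΔEx3 (Krt19, 0.93), and 0 rose and 1 fell in β-catΔEx3:Myc (Spp1, -2.5). Of 8 proliferation markers tested, 2 rose in β-catΔEx3 (Pcna and Mcm2), 1 rose in β-catΔEx3:Myc (Pcna) and 0 fell in either. With the slide as a block no biliary or proliferation call was kept (lowest adjusted p = 0.0741, Spp1 in β-catΔEx3:Myc). Cdk1 and Aurkb were not above background on any array. In bulk tissue, fewer cells of a type and less RNA per cell cannot be told apart, and the part of these shifts in the polyamine gene results was not tested.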

How the data were processed

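Livers of 11 mice were hybridised singly to 1-colour (Cy3) Agilent mouse arrays. Per the file headers, the authors read them with Agilent Feature Extraction 10.7.1.1 (array build mm9). The deposited scanner files give processed signal intensity, background-subtracted and on a linear scale. A matrix of log2 values deposited by the authors was an alternative; its columns share a median of 4.51 and rank probes as the scanner signals do. Its columns have the same quantiles, as quantile normalization gives, and genes are not centred; the method is not given in the sources used here.

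Outlier spots (137 to 209 per array) were left out of 59305 spots, spots of a probe were averaged as log2, and each array's 75th percentile over 55681 probes was subtracted. A probe was kept if it passed as well above background on 3 or more arrays (29695 probes), and the brightest probe stood for a gene. Accessions gave 26582 probes a symbol in the RefSeq table, and 22282 items were tested (13963 named). limma 3.58.1 in R 4.3.3 (with the package data.table, version 1.17.8) fitted 3 group means with moderated variances (eBayes; 8 residual and 2.52 prior degrees of freedom), 2-sided. An age for each mouse is labelled only on slide 4 (WT 31, β-catΔEx3 30 and β-catΔEx3:Myc 29 days), and age was not fitted. The fit was also run on simulated data with independent noise and no slide effect. That run cannot tell how the slides affect the calls.

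The genes and lists were chosen with earlier results of these data known, and some listed genes are not reported here. The naming rule takes every gene of the set, up to 4 called genes of each pathway list with the largest change, the 3 nearest profiles of Odc1 and Srm, Myc and Ctnnb1. Alternatives were quantile normalization, the percentile over probes detected on all arrays, normexp (offset 50), the deposited matrix, no filter, a stricter filter, the mean of a gene's probes, slide as a fixed or random block (correlation 0.0911), leaving out each array, and, chosen after seeing the data, each other probe on its own.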

Additional observations from a re-analysis of the deposited data

Results flagged for a closer look

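Among 78 groups of 4 arrays examined, 2 had an array far from the rest, with a gap to its nearest neighbour that took most of the group's range; about 1 group in 20 does so by chance. Sat2, a relative of Sat1, had a log2 signal of 3.25 in WT replicate 4 and of 2.78 to 2.84 in the other WT livers (gap over range 0.873). Dhps had 2.51 in WT replicate 2 and 2.88 to 2.94 in the others (0.842).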

How the results depend on the processing

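No paired analysis was possible because no label ties a mouse of one group to a mouse of another. With slide as a fixed block, 1819, 1932 and 184 genes were called (β-catΔEx3 against WT, then β-catΔEx3:Myc against WT, then between the mutants), in place of 8290, 9396 and 75, and 1 of the 9 polyamine genes, Srm, in each comparison with WT. Between the mutants 35 genes were called with the percentile over detected probes, 42 with no filter and 116 with a random block. Leaving out each array gave 6040 to 8409, 7730 to 9780 and 10 to 181 genes, and 2 to 3, 3 to 4 and 0 to 0 polyamine genes. The percentile over detected probes moved the split of calls from 4849 higher and 3441 lower to 3414 and 4662 in β-catΔEx3, from 5537 and 3859 to 4434 and 4741 in β-catΔEx3:Myc, and from 29 and 46 to 20 and 15 between the mutants. Srm was called against WT in 10 of 10 settings (1.22 to 1.71 and 1.19 to 1.74), Odc1 in 9 of 10 (0.81 to 1.04 and 0.63 to 0.97) and Paox in β-catΔEx3:Myc in 9 of 10 (-1.17 to -0.84). These calls were kept when each array was left out in turn. Signs turned as follows, uncalled except for the dimmer Oaz2 probe in β-catΔEx3:Myc. Against WT in β-catΔEx3, Smox had -0.04 with detected probes and -0.20 with the block, Oaz2 had 0.16 with the mean of probes and 0.43 by its other probe, and Azin1 had 0.07 with the mean and 0.01 and 0.25 by other probes. In β-catΔEx3:Myc, Oaz2 had 0.01 with normexp, 0.24 with the mean and 0.54 by its other probe. Between the mutants, Srm had 0 with detected probes, 0.02 with the block and 0.03 by its other probe, Sms had -0.03 with the block, Oaz1 had -0.04 with quantiles, -0.06 with the matrix and -0.06 with the block, and Ctnnb1 had 0.03, 0.04, 0.01 and 0.03 with quantiles, detected probes, normexp and the matrix. Leaving out 1 array turned the sign within these ranges: in β-catΔEx3, Sms -0.24 to 0.08, Smox -0.04 to 0.35, Oaz2 -0.26 to 0.09 and Azin1 -0.17 to 0.10; in β-catΔEx3:Myc, Oaz2 -0.16 to 0.03; and between the mutants, Srm -0.12 to 0.09, Sms -0.13 to 0.18, Oaz1 -0.15 to 0.12, Oaz2 -0.15 to 0.19 and Ctnnb1 -0.07 to 0.07. The cause of these changes was not tested. Precision is limited by the number of arrays, with 3 in β-catΔEx3.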
